A study of Mus musculus with 15 samples.

Results

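The molecular course of arthritis in the tarsal joint between its onset and its second week is described here by setting joints that had held a clinical score of 3 for 1 to 2 weeks against joints that had held it for 0 to 3 days. The comparison rests on 5 of the 15 arrays of the series, chosen by the duration in the labels: animals 33, 43 and 52 of week 1 to 2 and animals 16 and 18 of day 0 to 3. The array of animal 57, also of day 0 to 3, is marked in the labels as excluded for failed quality control and was left out, so that 14 arrays entered the fit. All 5 joints came from male DBA/1JBom mice that had been given chicken collagen type II in complete Freund's adjuvant on day 1 and a boost of the same collagen in incomplete adjuvant on day 21. They thus share strain, sex, immunisation and clinical score, and the labels set the groups apart by how long the score had lasted. Age, day of sampling and processing batch are not stated there for single joints, and whether the groups differ in these was not tested. The other groups, named where their levels are given, are 3 joints of week 3 to 4, 3 joints whose score had declined after at least 2 weeks, and 3 joints of mice that were not induced. Each array holds the RNA of 1 whole joint of another mouse, taken after the skin and visible muscle had been dissected away, so that the phases are different animals and not a course followed in the same joint. A whole joint holds bone, marrow, cartilage, synovium, tendon and whatever muscle and fat stays attached, and in such bulk RNA fewer cells of a type and less RNA per cell cannot be told apart.

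Collagen-induced arthritis is a mouse model of rheumatoid arthritis in which an immune response to cartilage collagen leads to swelling of the paws, erosion of bone by osteoclasts, the cells that resorb it, and later to new bone laid down by osteoblasts. Skeletal muscle contracts through myosin and actin filaments whose subunits come in fast and slow forms. Its fibres carry a calcium store, the sarcoplasmic reticulum, and enzymes that rebuild ATP. Cartilage and tendon are matrices of collagen held together by proteoglycans. Acute-phase proteins and chemokines are made under the influence of cytokines such as interleukin 6 and tumour necrosis factor.

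The values are the authors' log2 expression values, so that a difference of 1 is a 2-fold change, and a level is a value on that scale. On the 5 arrays the median over all probe sets lay between 6.06 and 6.14 and the SD over genes between 1.51 and 1.62, with the ranges of both groups overlapping. Of the markers fixed for the cell types of a joint, some read high on these arrays and others near these medians. Near them lay Dcstamp of osteoclasts at 5.97 to 6.67, Cd3e of T cells at 6.26 to 6.56 and Cma1 of mast cells at 6.06 to 6.11. S100a8, a neutrophil calcium-binding protein, lay between 11.20 and 12.62, Ibsp, a bone sialoprotein of osteoblasts, between 11.67 and 12.23, Ctsk, the collagen-degrading protease of osteoclasts, between 11.08 and 11.47, and Prg4, lubricin of the synovial lining, between 12.47 and 12.83. Of epidermal markers, Krt1 lay at 4.96 to 6.03 and Lor at 5.05 to 6.05 on these 5 arrays. Krt1 read 5.74, 6.18 and 11.57 in the control joints and Lor 7.31, 5.63 and 11.02, so that control 3 was by far the highest control in both.

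Of 19938 genes tested by limma over the 5 groups, 1 gene (0.00502%) had an adjusted p (Benjamini-Hochberg) under 0.05 and is called changed, the muscle gene Myl2, which was higher in week 1 to 2. At an unadjusted p under 0.05, which carries no correction for the number of genes, 356 genes (1.79%) were counted, 197 higher (0.988%) and 159 lower (0.797%). With a fold of at least 2 added, 56 genes were higher (0.281%) and 11 lower (0.0552%). The 356 genes are a smaller share than the 0.05 expected where no gene differs, so their number shows no excess of changed genes. In a fit of the 5 arrays alone the share at an unadjusted p under 0.05 was 6.4%. Of the 56, 28 belong to 3 lists of muscle contractile, calcium and energy genes, which hold 52 measured genes in all. Of the 11 lower genes, 3 belong to any of the textbook lists. The median difference over all genes was -0.018. A fit with a weight estimated for each array, which gives arrays with larger residuals less say, called 70 genes, 52 higher and 18 lower, 19 of them in the 3 muscle lists.

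The groups were close to each other as whole profiles. Over all genes the root mean square difference between the 2 arrays of day 0 to 3 was 0.251 on the log2 scale, and among the 3 arrays of week 1 to 2 it was 0.244 to 0.312. Between a joint of one group and a joint of the other it was 0.249 to 0.355. The distances between groups thus overlapped those within them. Animal 52 lay nearest to the early joints, at 0.252 from animal 16 and 0.249 from animal 18, and animal 33 farthest, at 0.355 and 0.301.

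**Figure D1:**
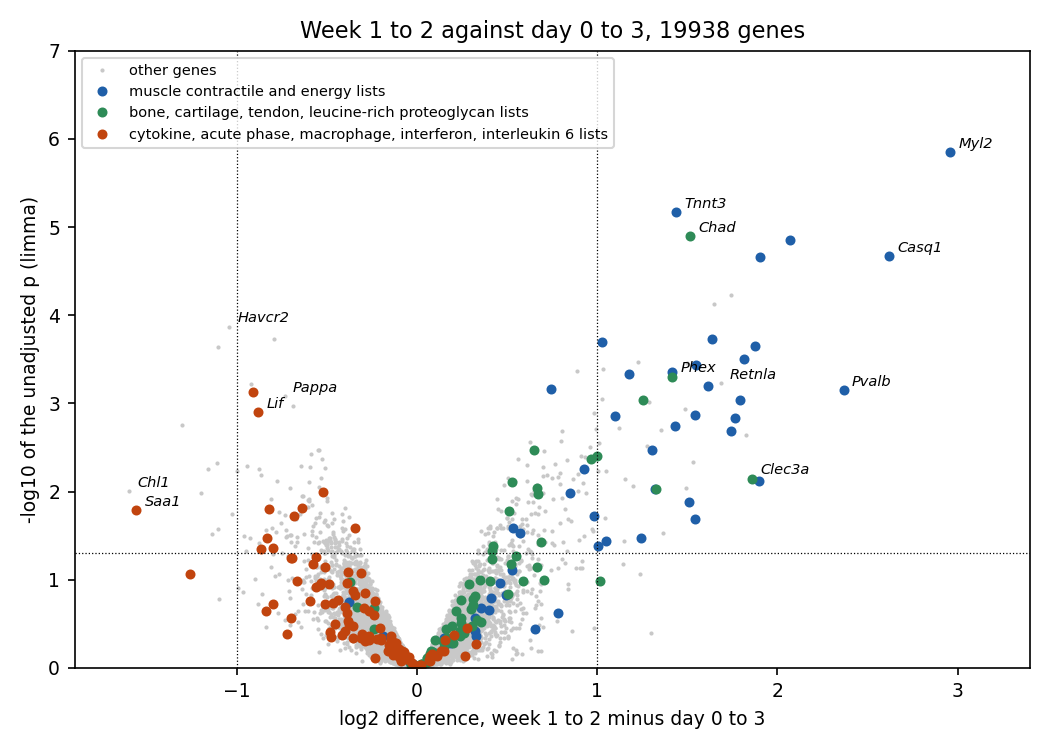
Log2 difference (week 1 to 2 minus day 0 to 3, x axis) of 19938 genes against the -log10 of the unadjusted p from limma (y axis), with dotted lines at a 2-fold difference and at the level 0.05. The muscle lists (blue) fill the right side with Myl2 at 2.96, while cytokine, acute-phase, macrophage, interferon and interleukin 6 family genes (red) lie mostly to the left and no further than -1.56.

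Myl2, the regulatory myosin light chain of slow and cardiac muscle, read 7.03 and 7.09 in the early joints, of day 0 to 3, and 10.23, 10.40 and 9.43 in the late joints, of week 1 to 2. The groups did not overlap, and the lowest joint of week 1 to 2 lay far above both early joints. The difference was 2.96 ± 0.36 (standard error), or 7.78-fold, with a 95% interval on the log2 scale of 2.18 to 3.74 and an adjusted p of 0.028. The means were 10.36 in week 3 to 4, 10.34 in decline and 10.40 in control, so that Myl2 in week 1 to 2 stood at the level of the later groups and of the control joints. The call depended on which arrays were in the fit. The adjusted p was 0.90 without animal 16, 0.37 without animal 18, 0.23 without animal 33, 0.22 without animal 43, 0.053 without animal 54 and 0.050 without animal 29 of week 3 to 4, 0.071 without decline 15, 0.068 without control 1 and 0.15 in a fit of the 5 arrays alone, while the difference itself stayed between 2.77 and 3.25 whichever array was left out. With animal 57 added it was 2.47, at an adjusted p of 0.18.

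The genes of fast muscle fibres followed. All 19 measured genes of the fast contractile list had a positive difference, with a median of 1.44 beside -0.02 over all genes. In 15 of them the groups did not overlap, as in 1818 of all genes (9.12%), and 16 had an unadjusted p under 0.05, but none passed the adjusted threshold. Casq1, calsequestrin, the calcium-binding protein of the sarcoplasmic reticulum, read 7.81 and 8.27 in the early joints and 11.02, 11.16 and 9.81 in the late. That is a difference of 2.62 ± 0.41 (6.14-fold, adjusted p = 0.072). Atp2a1, the pump that returns calcium to that store, read 8.38 and 8.12 against 10.57, 10.62 and 9.77, a difference of 2.07 ± 0.31 (adjusted p = 0.070). For both genes the lowest late joint was animal 52, still above both early joints.

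Myosin heavy chains were likewise lowest in animal 52 among the late joints. Myh1, the heavy chain of type 2X fibres, read 8.62 and 8.76 against 10.79, 11.08 and 9.93, a difference of 1.90 ± 0.30 (adjusted p = 0.072). Myh4, the chain of the fastest fibres, read 8.85 and 9.15 against 11.38, 11.01 and 9.86, a difference of 1.74 ± 0.46 (adjusted p = 0.85). Tnnt3, fast troponin T, read 11.03 and 11.38 against 12.75, 12.84 and 12.35, a difference of 1.44 ± 0.20 with the second lowest adjusted p of all genes, 0.067. None of the 3 overlapped between groups, and in each animal 52 was the lowest of week 1 to 2. Pvalb, parvalbumin, the soluble calcium buffer of fast fibres, read 9.69 and 10.59 against 12.62, 12.79 and 12.11 (2.37 ± 0.54). Its week 1 to 2 mean of 12.51 lay above the means of control (11.27), week 3 to 4 (11.67) and decline (10.72), unlike that of Myh1, whose control mean was 11.81, or of Atp2a1, at 11.58 in control. The 2 arrays of day 0 to 3 are few for such values, and each gene's standard error takes its spread from all 5 groups.

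Among the other muscle genes of largest difference were Mybpc2, fast myosin-binding protein C (1.88 ± 0.38), Xirp2, an actin-binding protein of muscle cell junctions (1.82 ± 0.49), and Klhl31, a kelch-like protein of skeletal muscle (1.74 ± 0.30). Klhl31 has a further probe set, which differed by 1.45. Acta1, skeletal actin, differed by 1.61 ± 0.37 and Ckm, muscle creatine kinase, by 1.30 ± 0.37. Each of these 5 was higher in all 3 joints of week 1 to 2 than in both of day 0 to 3, and none passed the adjusted threshold. Myl1, a fast light chain, was the exception among the fast markers, since its value in animal 52 (7.38) lay below that in animal 18 (7.78).

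**Figure D2:**
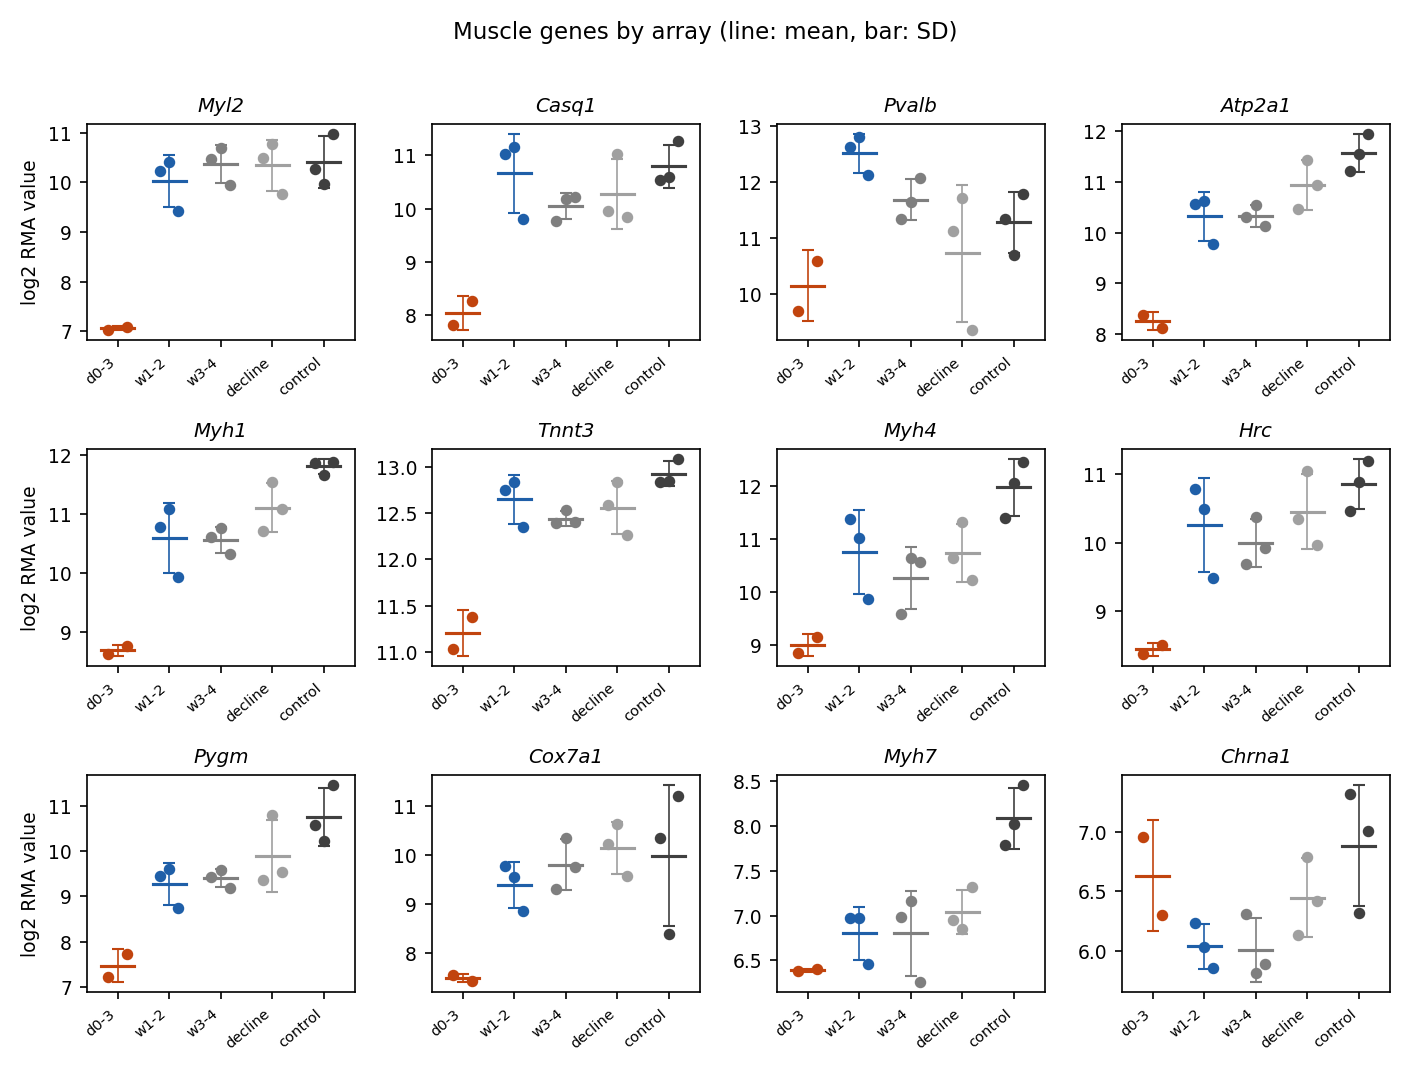
Log2 level (y axis, a separate scale in each panel) of 12 muscle genes on the 14 arrays by group (x axis), with 1 point per joint, a line at the group mean and a bar of 1 SD. In all but Chrna1 every joint of week 1 to 2 lies above both joints of day 0 to 3, with the widest gap in Myl2 (9.43 to 10.40 against 7.03 and 7.09) and the narrowest in Myh7 (6.46 to 6.98 against 6.38 and 6.4), and Chrna1 lies lower.

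The contractile genes that moved together have been studied for the sites in their promoters where muscle transcription factors bind: the E-box, bound by MyoD and its relatives, the MCAT element, bound by TEAD factors, the MEF2 site, and the TATA box. They are shown because these genes carry the finding: of the muscle genes named above with an adjusted p under 0.1, Myl2, Atp2a1, Casq1 and Myh1 have an entry in the RefSeq promoter set used here (GRCm38.p6), and Tnnt3 is named only. Each runs from 250 bases before to 50 bases after an annotated start, written on the strand of the gene. Capitals mark matches on either strand. The E-box was searched as CAGCTG, which reads the same on both strands. The letters taken for the MCAT element were CATTCC, and those for the TATA box, which a MEF2 site can overlap, were TATAAA. Myl2 has a pair of annotated starts.
Myl2, upstream start, chr5:122092474-122092773, + strand: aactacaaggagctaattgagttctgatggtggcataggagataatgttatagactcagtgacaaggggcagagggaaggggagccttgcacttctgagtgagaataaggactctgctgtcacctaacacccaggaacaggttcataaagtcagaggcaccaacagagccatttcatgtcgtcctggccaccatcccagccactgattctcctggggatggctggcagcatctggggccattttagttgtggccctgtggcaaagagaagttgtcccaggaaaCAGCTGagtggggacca
Myl2, downstream start, chr5:122092939-122093238, + strand: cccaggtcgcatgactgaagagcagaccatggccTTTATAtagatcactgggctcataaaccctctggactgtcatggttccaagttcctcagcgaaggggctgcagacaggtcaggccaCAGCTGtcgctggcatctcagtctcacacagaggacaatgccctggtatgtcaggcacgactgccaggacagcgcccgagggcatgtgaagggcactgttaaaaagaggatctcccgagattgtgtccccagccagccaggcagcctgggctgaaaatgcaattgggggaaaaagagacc
Atp2a1, chr7:126463024-126463323, - strand: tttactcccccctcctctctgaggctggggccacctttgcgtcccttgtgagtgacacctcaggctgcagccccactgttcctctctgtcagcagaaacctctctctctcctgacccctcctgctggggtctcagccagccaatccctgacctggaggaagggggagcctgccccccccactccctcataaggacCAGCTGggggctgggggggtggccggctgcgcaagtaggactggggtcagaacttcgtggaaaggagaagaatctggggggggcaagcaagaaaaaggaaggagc
Casq1, chr1:172219846-172220145, - strand: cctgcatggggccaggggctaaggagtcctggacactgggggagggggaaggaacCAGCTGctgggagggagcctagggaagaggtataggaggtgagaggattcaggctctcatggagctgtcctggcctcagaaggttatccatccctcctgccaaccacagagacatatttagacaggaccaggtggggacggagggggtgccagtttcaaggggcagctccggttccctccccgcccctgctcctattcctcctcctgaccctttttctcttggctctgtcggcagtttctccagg
Myh1, chr11:67199852-67200151, + strand: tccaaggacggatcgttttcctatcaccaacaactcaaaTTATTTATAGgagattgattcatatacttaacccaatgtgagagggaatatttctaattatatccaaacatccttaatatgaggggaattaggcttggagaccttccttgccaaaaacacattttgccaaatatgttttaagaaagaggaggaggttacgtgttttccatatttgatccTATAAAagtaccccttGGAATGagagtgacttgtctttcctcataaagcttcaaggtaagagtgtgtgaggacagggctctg

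The E-box stands in both Myl2 windows and in those of Atp2a1 and Casq1. The Myh1 window holds instead a MEF2 match that overlaps a TATA match, another TATA match just before the start, and an MCAT match. Over all 32851 promoter windows of that length, 16.3% held the E-box, 14.7% the MCAT letters, 13.6% the TATA letters and 3.19% a MEF2 match. Of the 14 windows found for 13 genes of the fast contractile list, 6 held the E-box (42.9%), 7 the MCAT letters (50%), 5 the TATA letters (35.7%) and 4 a MEF2 match (28.6%). Of 20 windows for 15 genes of the muscle energy and calcium list, 10 held the E-box (50%), 3 the MCAT letters (15.0%), 1 the TATA letters (5.00%) and 1 a MEF2 match (5.00%). Of 20 windows for 15 genes of the slow contractile list, to which Myl2 belongs, 6 held the E-box (30.0%), 3 the MCAT letters (15.0%), 4 the TATA letters (20.0%) and 2 a MEF2 match (10.0%). Windows of the cartilage (26.5%) and macrophage (23.8%) lists also held the E-box more often than the 16.3% of all windows, and none of these shares was tested. These are matches of letters and say nothing of binding in the joint.

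The genes that supply muscle with energy and handle its calcium moved like the fast contractile genes. All 17 measured members had a positive difference, with a median of 1.41. The groups did not overlap in 15 (9.12% of all genes in this direction), and 13 had an unadjusted p under 0.05 (0.988%). Hrc, a calcium-binding protein of the sarcoplasmic reticulum, read 8.37 and 8.51 against 10.79, 10.49 and 9.48 (1.81 ± 0.38). Pygm, which breaks down muscle glycogen, read 7.22 and 7.73 against 9.45, 9.61 and 8.75 (1.79 ± 0.42). Cox7a1, the muscle form of a cytochrome c oxidase subunit, read 7.55 and 7.43 against 9.76, 9.54 and 8.86 (1.90 ± 0.61), and Pgam2, muscle phosphoglycerate mutase, differed by 1.77 ± 0.44. In none of these did the groups overlap, and adjusted p-values ran from 0.41 for Hrc to 1.0 for Cox7a1. The respiratory chain genes that all tissues use did not share the shift: the 30 measured genes of the oxidative phosphorylation list had a median of 0.05, and none had an unadjusted p under 0.05.

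The slow contractile list was more mixed. Of its 16 measured members 12 had a positive difference, and the median was 0.38. The groups did not overlap in the higher direction in 6 (9.12% of all genes), and 5 were higher at an unadjusted p under 0.05 (0.988%). Beside Myl2 these included Myl3, the slow essential light chain (1.32 ± 0.44), Tnnc1, slow troponin C (1.10 ± 0.27), and Fabp3, which carries fatty acids (1.00 ± 0.45). Myh7, the slow heavy chain itself, read 6.38 and 6.4 against 6.97, 6.98 and 6.46, a difference of 0.41 ± 0.28, and Tnnt1, slow troponin T, read 9.89 and 10.08 against 10.86, 10.53 and 9.75, with overlap. The gene with the largest difference of all was thus a slow light chain, while the slow heavy chain differed by less than the 2-fold threshold.

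Genes linked to muscle regeneration and denervation did not move with the contractile genes. Of 13 measured, 10 had a negative difference and the median was -0.17. In 6 the groups were apart in the lower direction (11.2% of all genes). These 6 stayed apart with animal 57 counted as an early joint, beside 1209 of all 19938 genes. None was lower at an unadjusted p under 0.05. Chrna1, a subunit of the acetylcholine receptor, differed by -0.60 ± 0.30, Myf6, a muscle transcription factor, by -0.56 ± 0.29, and Fbxo32, a ubiquitin ligase of muscle wasting, by -0.37 ± 0.28. The exception was Mstn, myostatin, which restrains muscle growth. It read 4.78 and 5.97 against 6.95, 6.72 and 6.94, a difference of 1.49 ± 0.49 (adjusted p of 1.0), and its mean in week 3 to 4 was 8.01.

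Across the 52 genes of the 3 muscle lists, 48 had a positive difference (44.9% of all genes). In 36 the groups did not overlap with week 1 to 2 higher (9.12% of all genes). In 43 the late mean lay between those of the early and the control joints, with control highest, as in 5496 of all 19938 genes. Animal 52 was the lowest of the 3 late joints in 47 of the 52, beside 4972 of all 19938 genes. The mean of the fast contractile list was 8.84 and 8.99 in the early joints, 10.52, 10.57 and 9.74 in the late, 10.06 on average in week 3 to 4, 10.28 in decline and 10.95 ± 0.36 (SD, n = 3) in control. The joint of animal 57, left out of the fit, had a mean of 8.98 on the same list, close to animals 16 and 18. Its array had a narrow spread over genes (SD 1.08, beside 1.51 to 1.62 on the 5 arrays), so lists of high level can read low on it. The ribosomal protein list had a mean of 9.12 there and of 11.31 and 11.29 in animals 16 and 18. No conclusion can thus be drawn from the 8.98. Single genes varied, with Myh1 at 10.37, within the late joints, and Myl2 at 8.54, above both early joints. With animal 57 counted as an early joint too, 26 of the 52 genes still did not overlap with week 1 to 2 higher, beside 862 of all 19938 genes. How much muscle stayed on each joint at dissection is not recorded in the sources used here, and its part in these differences was not tested.

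Genes of bone formation lay higher in week 1 to 2 by less, and none was called. Of the 23 measured genes of the osteoblast and mineralisation list 22 had a positive difference, against 44.9% of all genes, with a median of 0.26. The groups did not overlap in the higher direction in 12 (9.12% of all genes did so), and 6 had an unadjusted p under 0.05 and were higher (0.988% of all genes). The largest was Phex, an endopeptidase of osteoblasts and osteocytes that affects phosphate balance and mineralisation. It read 6.99 and 7.95 against 8.87, 9.17 and 8.61, a difference of 1.42 ± 0.31 (adjusted p = 0.43), and its means were 8.31 in week 3 to 4, 7.95 in decline and 7.46 in control, so that week 1 to 2 was the highest of the 5 groups.

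Sp7, osterix, the transcription factor of committed osteoblasts, had little spread within either group. It read 6.50 and 6.50 against 7.18, 7.16 and 7.10, a difference of 0.65 ± 0.18 at an unadjusted p of 0.0034, and its control mean was 6.62. Alpl, the alkaline phosphatase needed for mineral to form, read 7.78 and 7.96 against 8.72, 8.47 and 8.45 (0.67 ± 0.23). Its control mean of 8.64 lay slightly above its late mean of 8.55. Dmp1, a mineral-binding protein of osteocytes, read 7.74 and 8.05 against 8.72, 8.60 and 8.45 (0.69 ± 0.30), and its mean was 9.16 in week 3 to 4. Omd, osteomodulin, a proteoglycan of bone, read 6.57 and 6.85 against 7.69, 7.94 and 7.39 (0.96 ± 0.28). None of these passed the adjusted threshold, and for all 4 the groups were apart. Of abundant bone genes measured here, Ibsp differed by 0.24 ± 0.23 and Col1a1, the main collagen chain of bone, by 0.30 ± 0.30, both with overlap.

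Of 21 early osteoblast and collagen-processing genes, 7 had a positive difference, against 44.9% of all genes, the median was -0.12, and none had an unadjusted p under 0.05. The groups were apart in the lower direction in 3 of the 21, beside 11.2% of all genes, and in the higher direction in 1. Lox, which cross-links collagen, differed by -0.28 ± 0.47 and Loxl3, a relative of it, by -0.44 ± 0.31, with levels in week 1 to 2 of 9.28 to 9.72 and 7.22 to 7.39. Loxl4, of the same family, differed by 0.33 ± 0.53, while its further probe set differed by -0.17. Creb3l1, a transcription factor of collagen secretion in osteoblasts, differed by 0.31 ± 0.20, with its groups apart. Among 22 collagen chains the differences ran from -0.11 to 0.30. The osteoclast list had a median of -0.14 over 21 genes, none of which had an unadjusted p under 0.05, and without animal 16 the median was 0.05. The mean of the list was 7.83 in animal 16 and 7.53 in animal 18, the latter within the range of the late joints, 7.46 to 7.61. Ctsk differed by 0.06 ± 0.51 and Acp5, the acid phosphatase of osteoclasts, by -0.06 ± 0.35, while the control means of both, 7.88 and 7.87, lay well below every one of the 5 joints.

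Cartilage genes differed by varied amounts. Of 31 measured 24 had a positive difference, the median was 0.17, the groups did not overlap in the higher direction in 16 (9.12% of all genes) and 7 were higher at an unadjusted p under 0.05 (0.988%). With animal 57 counted as an early joint 4 of the 31 were apart in that direction, beside 862 of all 19938 genes. Chad, chondroadherin, a matrix protein that binds chondrocytes and collagen, read 7.48 and 7.57 against 9.31, 8.96 and 8.86. Its difference of 1.52 ± 0.23 had an adjusted p of 0.070, the lowest of any gene outside muscle, and its means were 10.22 in week 3 to 4, 10.27 in decline and 10.50 in control. Clec3a, a cartilage lectin, read 6.48 and 7.2 against 9.49, 8.50 and 8.10 (1.86 ± 0.59), with a control mean of 10.77. The array of animal 57 read 8.95 for Chad and 8.24 for Clec3a, above animal 52 in both. Ucma, a secreted protein of cartilage matrix, differed by 1.00 ± 0.29. The defining markers differed less, with Col2a1, the main cartilage collagen, at 0.35 ± 0.20, Acan, aggrecan, at 0.33 ± 0.30, and Comp at -0.01 ± 0.20.

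Tendon and small proteoglycan genes lay higher too, with none called. Tnmd, tenomodulin, the marker of mature tendon cells, read 8.70 and 9.52 against 10.35, 10.54 and 10.44 (1.33 ± 0.44). Its control mean of 8.31 lay below both arthritis groups. Kera, keratocan, read 9.48 and 10.07 against 10.61, 11.04 and 10.70 (1.01 ± 0.58) and Ecm2 read 7.74 and 8.05 against 8.84, 9.55 and 9.06 (1.25 ± 0.30). In all 3 the groups were apart, at adjusted p-values of 0.55 to 1.0. Over the 11 tendon genes the median was 0.31. Over 15 small leucine-rich proteoglycans, which bind collagen fibrils, it was 0.29, with 9 of the 15 apart in the higher direction (9.12% of all genes).

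Of 22 adipocyte genes 10 were apart in the higher direction (9.12% of all genes) and 4 were higher at an unadjusted p under 0.05 (0.988%), among them Car3, a carbonic anhydrase of fat and muscle (0.80 ± 0.21), and Lpl, lipoprotein lipase (0.72 ± 0.22). The defining marker Adipoq, adiponectin, differed by 0.03 ± 0.21. Retnla, a secreted protein of alternatively activated macrophages, read 5.87 and 6.22 against 7.33, 7.84 and 8.03, a difference of 1.69 ± 0.38 (adjusted p = 0.48), with a control mean of 9.20. Here animal 52 was the highest of the late joints, not the lowest as in muscle. The array of animal 57, left out of the fit, read 8.94 for Retnla, above all 3 late joints.

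**Figure D3:**
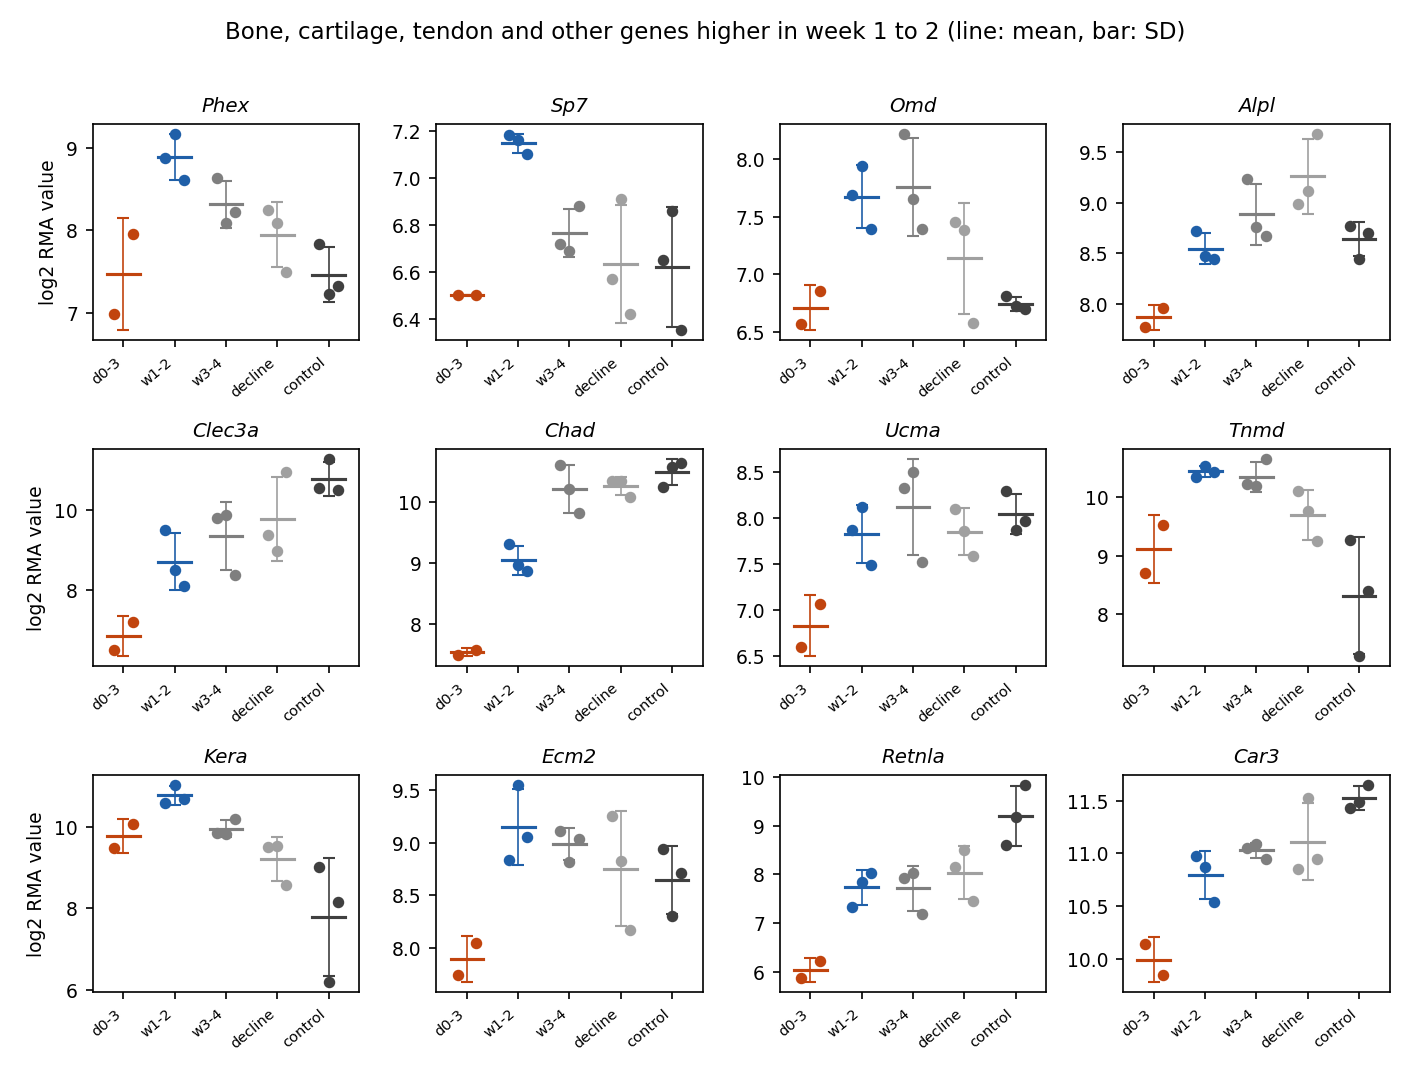
Log2 level (y axis, a separate scale in each panel) of 12 genes of bone, cartilage, tendon, fat and macrophages on the 14 arrays by group (x axis), with 1 point per joint, a line at the group mean and a bar of 1 SD. Every joint of week 1 to 2 lies above both joints of day 0 to 3 in each panel, while the control mean lies above all 5 of these joints for Clec3a (10.77) and below them for Kera (7.79).

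Of the 11 genes at least 2-fold lower with an unadjusted p under 0.05 none was called, and the groups were apart in all 11. The most marked were Chl1, a cell adhesion protein of the L1 family (-1.60 ± 0.53, 3.03-fold lower), Saa1, an acute-phase serum amyloid (-1.56 ± 0.57), and Rdh10, which converts retinol to retinal (-1.31 ± 0.34). Chl1 read 8.96 and 8.87 against 6.62, 7.65 and 7.67, and Rdh10 8.75 and 8.95 against 7.04, 7.86 and 7.72. In both genes animal 33 was the lowest joint. In 9 of the 11 genes the mean of the late joints lay between a higher one in the early and a lower one in the control joints. With animal 57 counted as an early joint too only 2 of the 11 remained apart, against 44 of the 56 genes in the higher set. The difference of Timp1 then turned from -1.10 to 0.65. The spread over genes on that array was narrow (SD 1.08), and genes of high level can read low on it, as Timp1 did at 6.46 and Mt2 at 9.57. Both sets were also chosen by fold and p, so these counts cannot show which set holds better.

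Receptors of the type 2 cytokines and an immune checkpoint stood in this set, at unequal p. Havcr2, known as TIM-3, an inhibitory receptor of T cells and myeloid cells, read 6.47 and 6.54 against 5.34, 5.71 and 5.35, a difference of -1.04 ± 0.20 (unadjusted p = 0.00013, adjusted p = 0.30). Its means in week 3 to 4, decline and control were 5.70, 5.65 and 5.66. Il13ra2, a decoy receptor for interleukin 13, read 6.11 and 6.35 against 4.98, 5.13 and 5.28 (-1.10 ± 0.22, adjusted p = 0.33). Il4ra, the receptor chain that interleukins 4 and 13 share, read 10.07 and 9.75 against 7.82, 9.16 and 9.15 (-1.20 ± 0.40, unadjusted p = 0.01). Its difference ran from -1.43 to -0.75 with 1 array left out. The late joints overlapped the controls in Havcr2, while in Il13ra2 and Il4ra all 3 stayed above the control means of 4.66 and 7.25.

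Acute-phase and inflammatory mediator genes lay lower as a list, with none called. Of 17 measured 15 had a negative difference with a median of -0.27, the groups were apart in the lower direction in 7 (11.2% of all genes were), and 3 had an unadjusted p under 0.05. Saa1 read 6.88 and 6.53 against 4.94, 4.98 and 5.52, and Saa2, its close paralogue, read 8.27 and 7.87 against 6.30, 6.86 and 7.26 (-1.26 ± 0.68). These near-identical genes may share signal on the array. Hp, haptoglobin, differed by -0.83 ± 0.35 and Sod2, the mitochondrial superoxide dismutase induced by cytokines, by -0.80 ± 0.36. Saa3, the amyloid made in inflamed tissue, read 12.04 and 12.20 against 10.80, 11.57 and 11.81 (-0.72 ± 0.85), still far above its control mean of 6.81. The signs for Sod2 and Saa3 turn with animal 57 added, to 0.08 and 0.97. The list median was then -0.05, and 0 of the 17 were apart in the lower direction, beside 1209 of all 19938 genes. Animal 33 was the lowest of the late joints in 13 of the 17, beside 7318 of all genes.

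Of 29 cytokine and chemokine genes 25 had a negative difference, with a median of -0.27 and 10 apart in the lower direction (11.2% of all genes). Of these, 3 remained so with animal 57 counted, beside 1209 of all 19938 genes. Cxcl14, a chemokine of epithelia and stroma, read 11.29 and 11.17 against 9.99, 10.44 and 10.52, a difference of -0.91 ± 0.21 (unadjusted p = 0.00074, adjusted p = 0.51). Il33, an alarm cytokine of stromal cells, read 7.39 and 7.53 against 6.45, 6.70 and 6.78 (-0.82 ± 0.30). Lif, leukaemia inhibitory factor, a member of the interleukin 6 family that acts on bone cells, read 7.07 and 6.84 against 6.01, 6.17 and 6.04 (-0.88 ± 0.22, adjusted p = 0.67). Its mean in control was 5.88. Il6st, the receptor chain through which that family signals, differed by -0.44 ± 0.30.

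Macrophage and interferon-induced genes leaned the same way. Of 24 macrophage genes 21 had a negative difference, with a median of -0.36, and 10 were apart in the lower direction (11.2% of all genes), but only 1, the Fc receptor Fcgr1 (-0.52 ± 0.18), had an unadjusted p under 0.05. The defining marker Csf1r, the receptor for macrophage colony-stimulating factor, differed by -0.49 ± 0.29 and C1qa by -0.46 ± 0.44. With animal 57 added the list median is 0.29 and 1 gene is apart in the lower direction, beside 1209 of all 19938 genes. Of 17 interferon-induced genes 14 had a negative difference, with Ifit1 at -0.87 ± 0.39 and Oas1a at -0.68 ± 0.26. Trim30d, of the tripartite motif family, differed by -1.02 ± 0.38. The median of the interferon list was -0.29, and -0.16 with animal 57 added.

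The 16 neutrophil genes had a median of 0.04, which was 0.34 without animal 33 and -0.25 without animal 43. Ngp and Camp, granule proteins made by precursors in the marrow, differed by 0.84 ± 0.52 and 0.77 ± 0.71, and Cxcr2, the chemokine receptor of mature neutrophils, by -0.74 ± 0.67. Each of them overlapped between groups. Cxcr2 read 10.21 and 10.13 against 8.0, 10.23 and 10.08, so that its difference came from animal 33 alone. Animal 33 was the lowest of the late joints in all 16 neutrophil genes, in 19 of the 24 macrophage genes and in 20 of the 29 cytokine genes. Over all 19938 genes it was the lowest in 7318. It was the highest in 13 of the 17 muscle energy genes, beside 7626 of all genes. Without animal 33 the median of the cytokine list was -0.06, and -0.19 for macrophage genes.

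**Figure D4:**
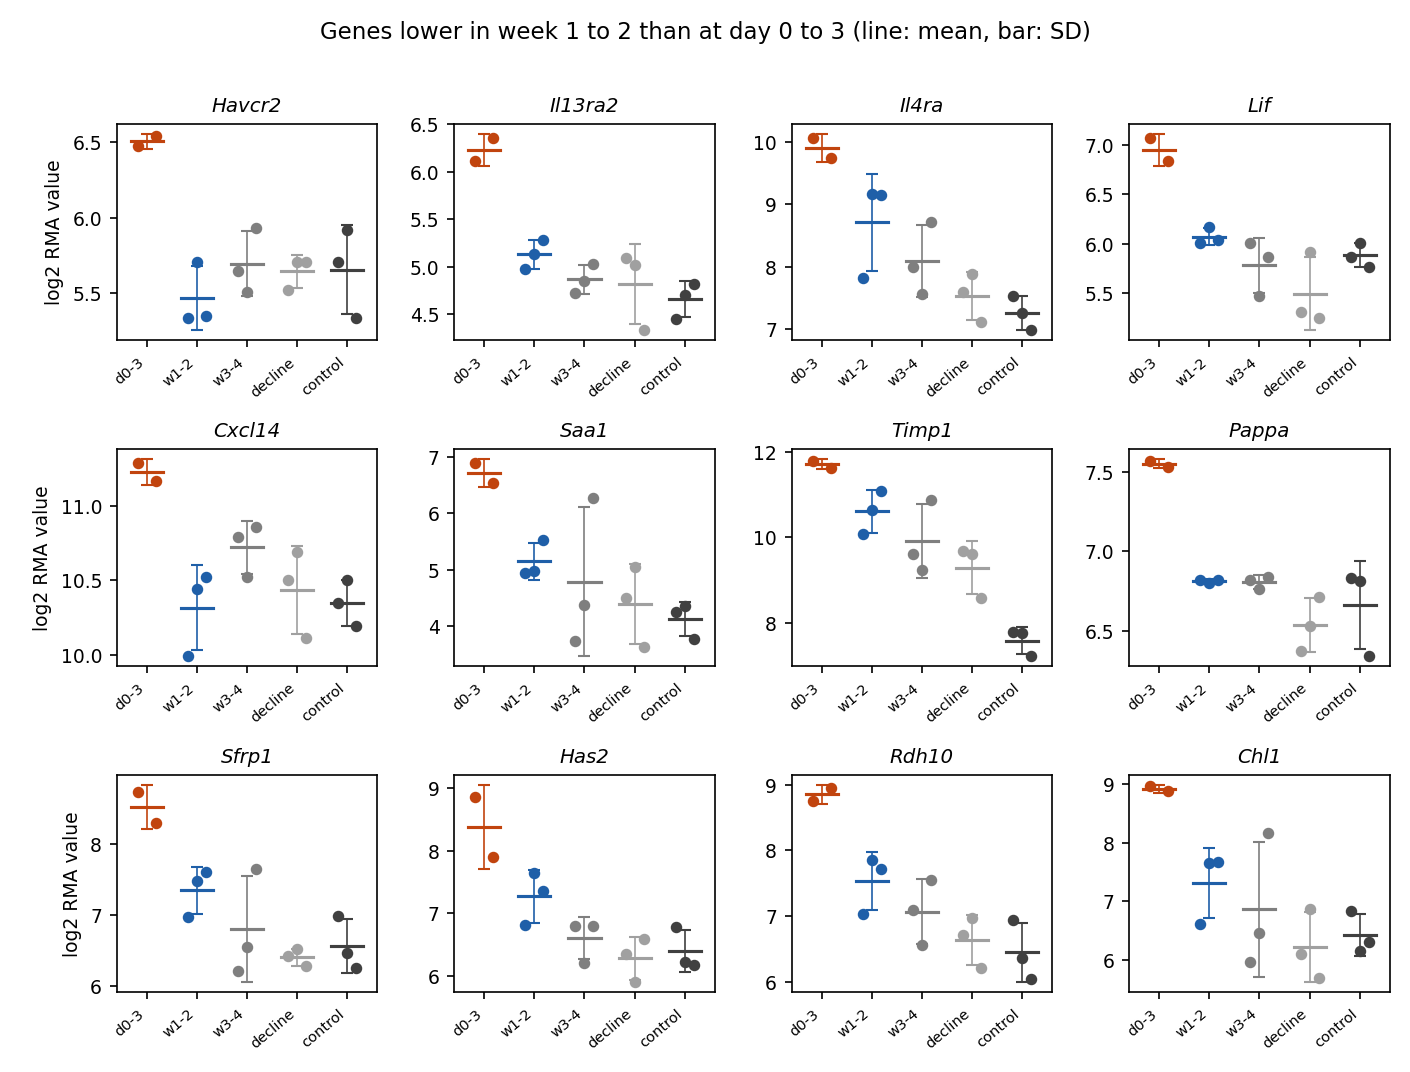
Log2 level (y axis, a separate scale in each panel) of 12 genes that were lower in week 1 to 2, on the 14 arrays by group (x axis), with 1 point per joint, a line at the group mean and a bar of 1 SD. All 3 joints of week 1 to 2 lie below both joints of day 0 to 3 in each panel, and the control means of Havcr2, Lif and Pappa are 5.66, 5.88 and 6.66.

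Pappa, the metalloproteinase that frees insulin-like growth factors by cutting their binding proteins, was the gene of the growth factor axis with the lowest p. It read 7.57 and 7.53 in the early joints against 6.82, 6.80 and 6.82 in the late. The joints of each group were nearly equal, and the groups differed by -0.74 ± 0.17, or 1.66-fold, at an unadjusted p of 0.00082 and an adjusted p of 0.55. The means in week 3 to 4, decline and control were 6.81, 6.53 and 6.66. Igfbp6, a binding protein for these factors, was higher by 0.61 ± 0.25 and Igf1 itself by 0.39 ± 0.29. Of the 17 genes of the axis 1 was higher and 1 lower at an unadjusted p under 0.05.

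The 44 measured genes of WNT signalling, a pathway that drives osteoblast formation, had a median of 0.02, with 3 higher and 1 lower at an unadjusted p under 0.05. Sfrp1, a secreted WNT antagonist, read 8.73 and 8.29 against 6.97, 7.47 and 7.6 (-1.16 ± 0.35). Frzb, of the same family and made by cartilage, read 5.60 and 5.65 against 6.54, 6.49 and 6.11 (0.75 ± 0.33), Wif1, another inhibitor, differed by 0.63 ± 0.21, and Ndrg2 by 0.75 ± 0.24. None of these 4 passed the adjusted threshold. Dkk1 and Sost, WNT inhibitors that act on bone, differed by 0.34 ± 0.17 and 0.31 ± 0.21. Of 39 BMP and activin genes, growth factors of bone induction, only Tgfbi, a matrix protein that transforming growth factor beta induces, had an unadjusted p under 0.05 (-0.73 ± 0.27). Bmp2 differed by 0.00 ± 0.39, Inhba, the activin subunit, by -0.61 ± 0.48 and Tgfb3 by 0.40 ± 0.33.

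The 30 measured matrix proteases and inhibitors had a median of -0.06, with 2 lower and none higher at an unadjusted p under 0.05. Timp1, the inhibitor of metalloproteinases, read 11.79 and 11.63 against 10.09, 10.65 and 11.08 (-1.10 ± 0.44), and Mmp3, stromelysin, read 11.70 and 11.83 against 10.10, 10.96 and 11.25 (-0.99 ± 0.61). Both stayed far above their control means of 7.59 and 7.25 in every late joint, and both differences turn positive with animal 57 added, at 0.65 each. Mmp13, the collagenase of cartilage and bone, had a mean of 11.24 in the early and 11.64 in the late joints (0.40 ± 0.53), and Mmp9 and Mmp14 differed by -0.19 ± 0.39 and 0.09 ± 0.24. Mmp16, a membrane-type metalloproteinase, read 6.86 and 6.90 against 7.47, 7.52 and 7.23 (0.53 ± 0.27), with the groups apart. Has2, which makes hyaluronan, read 8.85 and 7.90 against 6.81, 7.64 and 7.35 (-1.11 ± 0.33). Mt2, a metallothionein that binds zinc, read 12.36 and 12.32 against 10.95, 11.20 and 11.46 (-1.14 ± 0.47).

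The machinery of protein secretion and of cell division shifted by little, but nearly all members in 1 direction. Of 29 genes of the endoplasmic reticulum 27 had a negative difference, with a median of -0.18. In 16 the groups were apart in the lower direction (11.2% of all genes). With animal 57 counted this held for 0, beside 1209 of all 19938 genes. Hspa5, the main chaperone of that compartment, read 10.26 and 10.06 against 9.47, 9.64 and 9.37 (-0.66 ± 0.29), and Creld2, a chaperone of the same stress response, differed by -0.46 ± 0.18. These were the 2 genes with an unadjusted p under 0.05, and that of Hspa5 turns to 0.28 with animal 57 added. Of 32 proliferation genes 31 had a negative difference, with a median of -0.19 and 11 apart (11.2% of all genes), though none had an unadjusted p under 0.05. Without animal 16 the median was -0.07. The mean of the list was 7.37 in animal 16 and 7.07 in animal 18, against 6.87, 7.05 and 7.09 in the late joints. Kif11, a motor of the mitotic spindle, differed by -0.47 ± 0.24 and Rrm2, which makes DNA precursors, by -0.45 ± 0.41. Members of such lists are not independent of each other, and with animal 57 added the median of the endoplasmic reticulum list was 0.33.

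Endothelial genes had a median of -0.13 over 29, with Aplnr, the apelin receptor of growing vessels, at -0.81 ± 0.32 and Kdr, the main receptor for vascular growth factor, at -0.70 ± 0.30, and Pecam1, a marker of all vessels, at -0.13 ± 0.24. Lymphocyte, erythroid, mast cell and Schwann cell lists had medians between -0.02 and 0.13 and no gene at an unadjusted p under 0.05. The 26 epidermal genes, whose mean on the 5 arrays lay between 5.78 and 6.37, had a median of 0.19 (0.06 without animal 52, 0.35 without animal 43) and none at an unadjusted p under 0.05. Ribosomal protein genes had a median of -0.13.

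Genes that the study singled out on these arrays for their timing are not independent evidence, and their values are given for description. Of its 8 late osteoblast genes 5 were measured here. All 5 had a positive difference, among them Sp7 highest at 0.65 and Ifitm5 lowest at 0.21 ± 0.17. Spp1, Enpp1 and Bglap1 were not among the genes tested, so their differences are not given. In the paper the mean of Bglap1 lay below control at day 0 to 3 and above it in week 1 to 2. Spp1 and Enpp1 lay further above control in week 1 to 2 than at day 0 to 3. Its 4 osteoclast-linked genes of day 0 to 3, among them Lif and Tyrobp (-0.29 ± 0.41), and its 4 early osteoblast genes, among them Lox and Bmp1 (-0.17 ± 0.20), all had a negative difference, and Lif alone of these had an unadjusted p under 0.05. The 10 matrix genes it lists as sustained had a median of 0.24, with Ogn at 0.66 ± 0.34 and Cthrc1 at 0.42 ± 0.44. Of 14 genes it links to human arthritis, with 2 more given only by an incomplete symbol and not used here, none had an unadjusted p under 0.05, the widest being Edil3 at 0.80 ± 0.39 and Ptgs2, cyclooxygenase 2, at -0.54 ± 0.32.

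**Figure D5:**
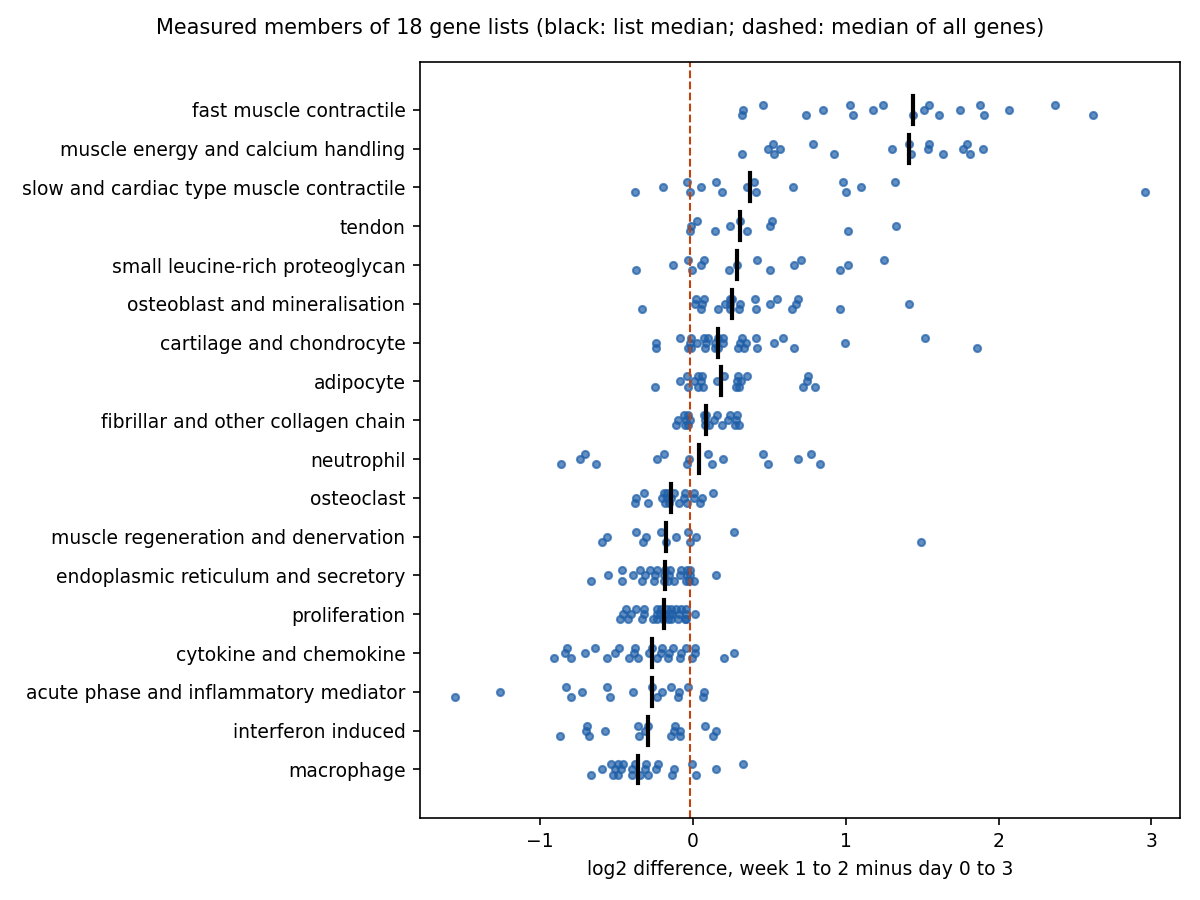
Log2 difference (week 1 to 2 minus day 0 to 3, x axis) of each measured member of 18 gene lists (y axis), with 1 point per gene, a black line at the list median and a dashed line at the median of all genes, -0.018. The 2 upper muscle lists have medians of 1.44 and 1.41, those of tendon, proteoglycan, bone and cartilage lie between 0.17 and 0.31, and those of the cytokine, acute-phase, interferon and macrophage lists between -0.36 and -0.27.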

How the data were processed

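RNA of whole tarsal joints, 1 array per joint and none pooled, was isolated on mirVana columns and, after NuGEN Pico amplification, hybridised to Affymetrix Mouse Gene 1.0 ST arrays in 1 colour. The authors ran RMA (background correction, quantile normalisation and summary of probes; affy, R 2.15 per the labels) and deposited log2 values from 1.56 to 14.26. The sources used here do not give the version of affy or whether all 15 arrays were normalised together. RMA draws low signals together and can understate the change of dim genes.

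Of 35556 probe sets, 21789 that name 1 gene were used, 1621 name several and 12146 none. A gene with several probe sets (999 genes) was represented by that of highest mean, which left 19938 genes. The 5 groups were fitted as means in limma 3.58.1 (lmFit and eBayes, R 4.3.3) without covariates, with Benjamini-Hochberg adjustment over all genes. Genes were also counted at 2-fold with an unadjusted p under 0.05, and as apart where no joint of one group overlaps the other. Arrays have no read depth, and precision rests on 2 and 3 joints. Where nothing else is said, errors are standard errors of that fit.

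Genes are named if called, if among the 15 highest or lowest differences (p under 0.05, at least 2-fold, apart, mean of at least 6), if among the 4 widest members of a list, if a fixed cell type marker, or if the study names them. The members, the rule, 35 textbook lists and 7 lists from the study were chosen with earlier results of these data known, so no list was tested. Alternatives were all 15 arrays, each array left out, other sets of arrays, 2 unmoderated ANOVAs, trend and robust moderation, array weights, median centring, quantile normalisation over again, minimum means of 4 and 6, all probe sets, and the mean of a gene's probe sets. Leaving out control 2 and decline 10, and the 8 arrays of the first 3 phases, were alternatives added later, with the data in view. The fit was also run on simulated data, whose outcome is not given here. Plots used matplotlib 3.10.9 (Python 3.11.15).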

Additional observations from a re-analysis of the deposited data

Results flagged for a closer look

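On the array of animal 57, which was left out of the fit and added only as an alternative, the mean of the interferon-induced list was 6.57, above the highest control at 6.50, and below animals 16 and 18 of the same label at 7.19 and 7.07. The SD over genes on that array was 1.08 and its mean correlation with the other joints of its group was 0.779, across genes. Groups here hold 2 or 3 joints, so that no single joint was tested as standing apart from its group.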

How the results depend on the processing

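Of the genes called, 1 in the comparison as given, leaving out single arrays gave 0 to 7. It was 0 without animals 16, 18, 33, 43, 54 or 29, decline 15 or control 1, and 7 without animal 52. It was 2 with animal 57 added, with a second quantile normalisation and with a mean of at least 6. It was 0 in a fit of the 5 arrays, in both ANOVAs, with arrays centred on their medians and over all probe sets, where 1276, 1117 and 400, 341 and 481 features had an unadjusted p under 0.05. It was 4 without control 2 and decline 10, 5 over the 8 arrays of the first 3 phases and 70 with array weights. Genes 2-fold higher numbered 121 with animal 57 and 103 over all probe sets, and 46 to 75 with 1 array left out. Genes 2-fold lower numbered 1 with animal 57 and 29 over all probe sets, and 4 to 26 with 1 array left out. The cause was not tested.

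With animal 57 added the sign of the difference turned for 24 of the 120 genes named: Acp5 (0.38), Adipoq (-0.06), Bmp1 (0.10), C1qa (0.27), Comp (0.47), Csf1r (0.12), Cxcr2 (0.05), Hspa5 (0.28), Il6st (0.72), Inhba (0.34), Krt1 (-0.15), Lor (-0.21), Lox (0.93), Mmp3 (0.65), Mmp9 (0.63), Pecam1 (0.42), Ptgs2 (0.18), Rrm2 (0.26), S100a8 (0.54), Saa3 (0.97), Sod2 (0.08), Tgfbi (0.10), Timp1 (0.65), Tyrobp (0.88). With 1 array left out at a time, the sign turned for genes that differed by little, with ranges of -0.27 to 0.16 for Acp5, -0.05 to 0.12 for Adipoq, -0.19 to 0.20 for Bmp2, -0.05 to 0.03 for Comp, -0.13 to 0.26 for Ctsk, -0.46 to 0.07 for Mmp9, -0.34 to 0.37 for S100a8. Comp came to 0.00 with arrays centred on their medians and S100a8 to 0.08 with array weights.

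The medians of the fast contractile and the muscle energy lists stayed between 1.16 and 1.63 with 1 of the 5 arrays left out, and were 1.34 and 1.19 with animal 57 added. With it the medians of these lists turned positive: macrophage (0.29), endoplasmic reticulum (0.33), ribosomal protein (0.56), osteoclast (0.05), early osteoblast (0.30), matrix protease (0.50), interleukin 6 family (0.08), hypoxia (0.06), and the study's osteoclast (0.43), early osteoblast (0.51) and tissue degradation (0.64) genes. Those of the epidermal (-0.17), lymphocyte (-0.11) and erythroid (-0.04) lists turned negative.

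Arrays have no depth, and the 2 joints of day 0 to 3 limit every value. Where 1 of them is left out, the other is taken to vary like the other groups. No paired analysis was possible because each joint came from another animal and the replicate numbers only name the samples.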

Other observations

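Genes outside the lists also differed by at least 2-fold at an unadjusted p under 0.05, and those named here were chosen after their values were seen. Spon2, spondin 2, a secreted matrix protein, read 6.13 and 6.2 in the early joints, of day 0 to 3, against 7.46, 7.04 and 7.66 in the late, of week 1 to 2, a difference of 1.23 ± 0.26 (adjusted p = 0.41). Its means in week 3 to 4, decline and control were 6.60, 6.62 and 6.35, so that it was highest in week 1 to 2. Pla2g2a, a secreted phospholipase, read 5.19 and 5.60 against 7.06, 6.62 and 6.09 (1.20 ± 0.39), below its control mean of 8.29. Ptprz1, a receptor phosphatase, differed by 1.05 ± 0.40 and Gsta4, which clears products of lipid oxidation, by 1.15 ± 0.50. None passed the adjusted threshold.

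The precursor gene of a let-7 microRNA, Mirlet7c-1, was the single microRNA gene among the 56 higher genes. It read 4.19 and 3.86 against 5.15, 5.38 and 4.64, a difference of 1.03 ± 0.22 (unadjusted p = 0.00041, adjusted p = 0.42). On the other 9 arrays of the fit it lay between 3.32 and 4.07, below every joint of week 1 to 2. These are low levels on this array, which reads the locus and not the processed microRNA. Its mature form in RefSeq (chr16:77599672-77599693, + strand, GRCm38.p6) is shown with the seed, bases 2 to 8, in capitals.
mmu-let-7c-5p: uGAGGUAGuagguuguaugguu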
